A study of Homo sapiens with 4 samples.

Results

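The 9 genes DBP, TEF, HLF, NFIL3, CIART, BHLHE40, BHLHE41, RORA and CSNK1E encode factors that carry the output of the circadian clock or act on its core loop. They were chosen by these roles, from the 58735 genes of the count table, with the fold changes of this contrast already known. Their values are therefore given as a description, and the calls below support nothing about the group. Each symbol matched 1 Ensembl identifier through GENCODE 29.

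The libraries came from MHCC97-H cells, a line of human hepatocellular carcinoma that the labels call wild type. Polyadenylated RNA was sequenced from 2 libraries labelled as having had no treatment and from 2 libraries made after clofazimine (CFZ), a riminophenazine antibiotic, and all 4 titles give 16 h. The dose is 40 μM in the sample labels and 30 μM in the series text, and the labels leave the difference unsettled. No vehicle is named for the untreated cells, and separate cultures are not stated, so the spread behind each p-value may be technical. With 1 time point, a change in the level of a rhythmic transcript and a shift of its phase cannot be told apart.

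In the mammalian clock, CLOCK and BMAL1 (ARNTL) activate genes through E-boxes, and PER and CRY proteins repress them. DBP, TEF and HLF, the PAR bZIP activators, bind D-box sites in output genes, which in mouse liver include genes of detoxification, and NFIL3 represses from the same sites. BHLHE40 and BHLHE41 (DEC1 and DEC2) and CIART (CHRONO) repress the action of CLOCK and BMAL1. RORA activates at RORE sites, where REV-ERB proteins (NR1D1, NR1D2) repress, and CSNK1E, casein kinase 1 epsilon, phosphorylates PER proteins.

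E-boxes are the sites through which the core loop reaches several of these genes, so the windows that hold one are shown. RefSeq (GRCh38.p14) gave 13 start sites for the 9 genes, and the 250 bases before each were searched on both strands. The E-box CACGTG, which reads the same on both strands, was in 5 of these 13 windows, belonging to TEF, CIART, BHLHE40 and BHLHE41, and in 6.34% of all 35116 windows of that length in the table. CIART held 3 copies, at 129, 71 and 57 bases before its start (counted to the first base of the motif). The sequences below run 5′ to 3′ on the strand of the gene, with E-boxes in capitals. Those of CIART and TEF stop at the next exon downstream that GENCODE 29 annotates for the gene, and 30 bases are given for BHLHE40 and BHLHE41, whose E-boxes lie in such an exon. The second TEF window lies inside the gene, before an internal start site, and stops at an internal exon.
CIART, chr1:150282304-150282542, plus strand: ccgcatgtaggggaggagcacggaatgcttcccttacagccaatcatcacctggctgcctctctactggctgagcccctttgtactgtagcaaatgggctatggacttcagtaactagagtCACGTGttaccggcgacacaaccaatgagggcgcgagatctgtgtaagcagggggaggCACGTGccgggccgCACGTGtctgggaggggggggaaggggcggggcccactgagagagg
TEF, upstream start, chr22:41367205-41367332, plus strand: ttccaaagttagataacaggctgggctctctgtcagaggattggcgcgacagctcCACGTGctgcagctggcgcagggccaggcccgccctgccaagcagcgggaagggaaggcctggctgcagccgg
TEF, internal start, chr22:41381692-41381928, plus strand: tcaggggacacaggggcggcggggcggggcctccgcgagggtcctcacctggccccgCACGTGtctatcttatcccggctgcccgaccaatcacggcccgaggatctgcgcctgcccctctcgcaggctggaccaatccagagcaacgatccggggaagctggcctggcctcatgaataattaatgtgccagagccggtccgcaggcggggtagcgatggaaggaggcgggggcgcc
BHLHE40, chr3:4979187-4979216, plus strand: tccaaCACGTGagactcatgtgatgaagcc
BHLHE41, chr12:26125068-26125097, minus strand: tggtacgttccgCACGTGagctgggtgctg

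Of the other motifs searched, the E-box variant CACGTT was found before CSNK1E (4.55% of all windows) and the RORE core TAGGTCA before NFIL3 (1.61%). The D-box TTATGTAA (0.834%), its variant TTACGTAA (0.105%), the RORE variant TGGGTCA (3.27%), the cyclic AMP response element TGACGTCA (1.65%) and the C/EBP-ATF site TGATGNAA (3.14%) were in none of the 13 windows. No match overlapped another. The absence of these letters says nothing of introns or distal sites, and a match is not evidence of binding. The windows of the E-box holders include that of BHLHE41, which did not pass the test below, and the windows of DBP and HLF, which did, held no match.

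In the clofazimine libraries 7 of the 9 genes were higher, 0 were lower, and BHLHE41 and RORA did not pass the test (edgeR's quasi-likelihood test over 16388 genes, with a Benjamini-Hochberg adjusted p under 0.05). The 7 were DBP, TEF, HLF, NFIL3, CIART, BHLHE40 and CSNK1E, from 2.16-fold for CSNK1E to 15.3-fold for HLF, and each was at least 2-fold higher. Of all genes tested, 29.5% were called higher, 30.4% lower, and 10.5% were called at least 2-fold higher. With library totals in place of TMM scaling (trimmed mean of M values) 37.4% of the called genes were higher, against 49.2%, and the median over all genes moved by -0.17 on the log2 scale. The groups did not overlap for 8 of the 9 genes, against 80.8% of all genes tested. All 9 passed the filter on low counts, HLF only through its clofazimine libraries. The median log2 fold change of the 9 was 2.04, beside -0.03 over all genes tested. Since these are bulk libraries, more cells with a transcript and more of it per cell cannot be told apart.

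**Figure D1:**
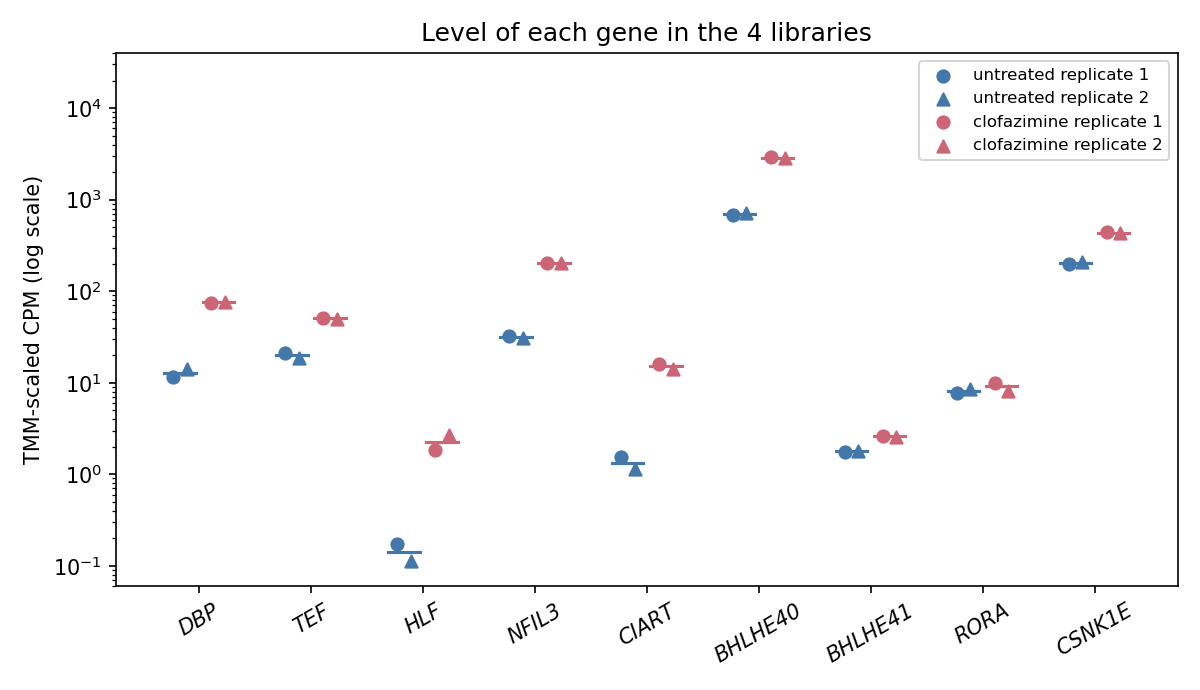
Level of each of the 9 genes in each library, as CPM (counts scaled by TMM to a common library size) on a log axis, with untreated libraries in blue and clofazimine libraries in red, replicates 1 and 2 as circles and triangles, and a line at the mean of each group. The groups overlap only for RORA, and the levels span from 0.113 CPM (HLF) to 2918 CPM (BHLHE40).

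DBP, the founding PAR bZIP factor and a classic readout of clock output, had 202 and 251 counts without the drug and 953 and 1172 with it. Scaled for depth, these are 11.5 and 14.2 against 74.1 and 76.8 CPM. Both clofazimine libraries lay far above both untreated ones, at 5.86-fold, a log2 fold change of 2.55 ± 0.14 (SE). DBP (ENSG00000105516, GRCh38 chromosome 19, 48630030 to 48637438, minus strand) shares 661 of its 6544 exon bases with SPHK2, a sphingosine kinase gene on the opposite strand. SPHK2 had 195 and 176 untreated and 75 and 85 clofazimine counts, so its counts went the other way. The strand setting of the counting is not given in the sources used here, and the part of SPHK2 reads in the DBP count was not tested.

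TEF, thyrotroph embryonic factor, had 371 and 331 untreated and 663 and 755 clofazimine counts, or 21.2 and 18.7 against 51.5 and 49.5 CPM. Its 2.53-fold rise (log2 1.34 ± 0.13, SE) was the smallest of the 3 activators, without overlap between groups. TEF (ENSG00000167074) lies on chromosome 22, 41367333 to 41399326, plus strand. RNU6-495P on the opposite strand lies within its span, shares 0 of its exon bases and had 0 counts.

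HLF, hepatic leukemia factor, was close to the limit of detection without the drug, with 3 and 2 counts (0.171 and 0.113 CPM) against 24 and 41 counts (1.87 and 2.69 CPM) with it. Summed over each group, 65 against 5 counts gave a ratio of 16.3 (exact 95% interval 6.63 to 51.8, which covers counting error only). The fitted log2 fold change was 3.94 ± 0.57 (SE), the least certain of the 9. HLF was the lowest of the 9 genes in each group, per length of transcript. It lies on chromosome 17 (ENSG00000108924, 55265012 to 55325065, plus strand). The antisense gene AC007638.2 overlaps its span, shares 0 of its exon bases and had at most 2 counts in any library.

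NFIL3, also called E4BP4, the repressor that competes with these activators, had 564 and 539 untreated and 2648 and 3104 clofazimine counts. Its level was 32.2 and 30.5 CPM without and 206 and 203 CPM with clofazimine, a 6.53-fold rise (log2 2.71 ± 0.12, SE). The replicates lay close together in both groups, and NFIL3 had the smallest adjusted p of the 9 (5.69e-11, edgeR). So the activators and the repressor of D-box sites were all higher in the same libraries. NFIL3 (ENSG00000165030) is on chromosome 9, 91409045 to 91423862, minus strand, with no other gene over it in GENCODE 29.

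To compare levels between these genes, CPM was divided by transcript length, taken as the longest APPRIS principal transcript of each gene. On this scale the 3 activators summed to 10.02 and 10.7 CPM per kb without the drug and to 45.3 and 46.2 with it. NFIL3 stood above that sum in every library. The ratio of NFIL3 to the sum was 1.46 ± 0.118 (SD, n = 2) untreated and 2.15 ± 0.0479 with clofazimine. Within the sum, DBP held 55.7% ± 5.79 untreated and 74.0% ± 0.858 with clofazimine, while TEF went from 44.04% ± 5.71 to 25.1% ± 1.07 and HLF from 0.250% ± 0.0824 to 0.895% ± 0.216. With the length of all annotated exons instead, the ratio of NFIL3 was 2.42 ± 0.0596 and 4.35 ± 0.0505, and TEF held more than DBP in the untreated libraries (68.0% ± 4.98 against 31.6% ± 5.07). Which activator was the more abundant without clofazimine thus depended on the length used, whereas the share of DBP was higher with clofazimine by either length (51.04% ± 1.14 by that of all exons).

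**Figure D2:**
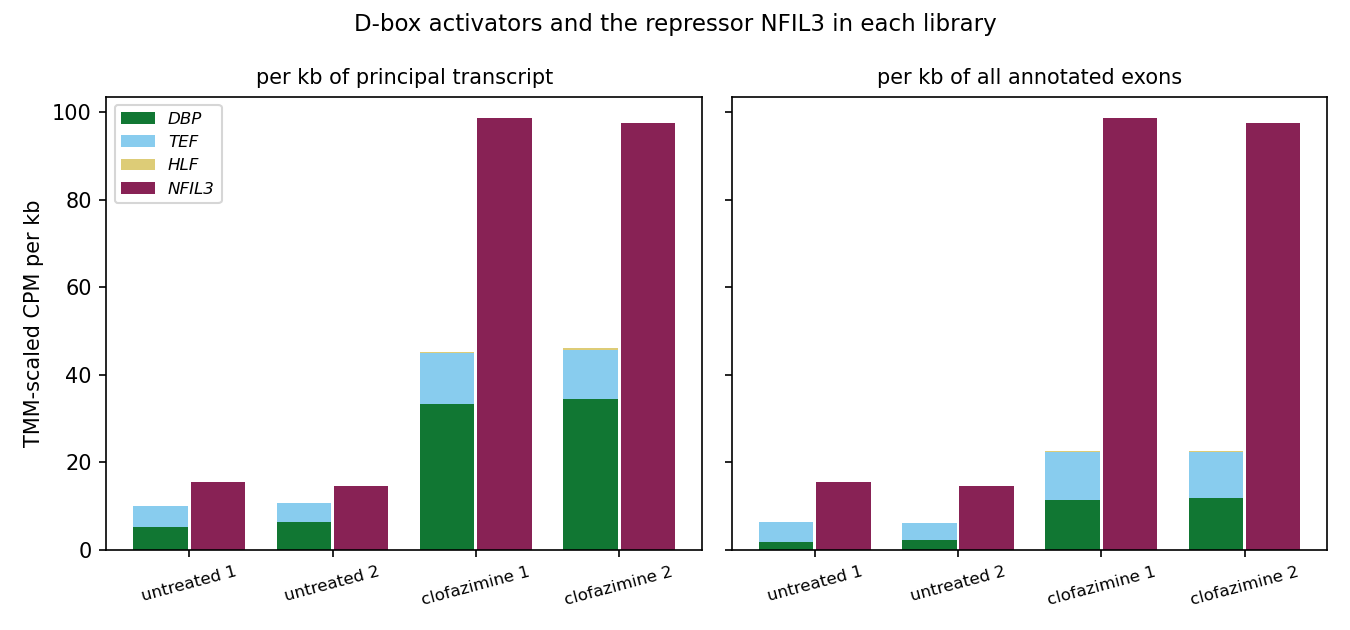
Stacked bars give DBP, TEF and HLF and separate bars NFIL3, in TMM-scaled CPM per kb for each of the 4 libraries, with the length of the principal transcript in the left panel and of all annotated exons in the right. NFIL3 is at 15.4 and 14.6 without clofazimine and at 98.7 and 97.6 with it, above the stacked sum in both panels.

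CIART, which in mouse encodes a repressor of CLOCK and BMAL1 recruited to E-boxes, was the gene with 3 E-boxes shown above. It had 27 and 20 counts untreated and 207 and 218 with clofazimine, or 1.54 and 1.13 against 16.1 and 14.3 CPM. From this low level it rose 11.3-fold (log2 3.50 ± 0.24, SE), and 99.2% of all tested genes had a lower fold change. CIART (ENSG00000159208) lies on chromosome 1, 150282543 to 150287093, plus strand, free of other genes.

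BHLHE40, a basic helix-loop-helix repressor that also responds to hypoxia, serum and stress signals, was the most abundant of the 9 per length of transcript. Its counts were 11902 and 12664 untreated and 37543 and 43155 with clofazimine, or 679 and 717 against 2918 and 2829 CPM. The rise was 4.12-fold (log2 2.04 ± 0.14, SE), with replicates that differed little beside it. BHLHE40 (ENSG00000134107, chromosome 3, 4979116 to 4985323, plus strand) shares 4 exon bases with BHLHE40-AS1 on the opposite strand, which had 35 and 54 untreated and 21 and 29 clofazimine counts.

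Its paralog BHLHE41, which shares the E-box mode of repression, did not pass the test. It had 31 and 32 counts untreated and 34 and 39 with clofazimine, or 1.77 and 1.81 against 2.64 and 2.56 CPM. The groups did not overlap, but at these counts the log2 fold change of 0.54 had a 95% interval from -0.16 to 1.23 (edgeR adjusted p 0.17). A rise as large as that of BHLHE40 lies outside this interval, and a rise of 2-fold lies within it. Per kb, BHLHE40 stood 431 ± 9.23 times above BHLHE41 untreated and 1221 ± 1.82 times with clofazimine (SD, n = 2). BHLHE41 (ENSG00000123095, chromosome 12, 26120026 to 26125127, minus strand) shares 162 exon bases with SSPN on the opposite strand, which had 28 and 23 against 8 and 12 counts.

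RORA, the nuclear receptor that opposes REV-ERB proteins, had 134 and 151 counts untreated and 129 and 125 with clofazimine, or 7.64 and 8.55 against 10.0 and 8.19 CPM. It was the only one of the 9 whose groups overlapped. The log2 fold change was 0.17 with a 95% interval from -0.25 to 0.58 (edgeR adjusted p 0.49), so a 2-fold change in either direction lies outside the interval. Its paralog RORB was at 3.08 and 3.23 against 3.11 and 4.26 CPM (log2 0.23 ± 0.28, SE). NR1D1, which encodes REV-ERB alpha, stood 12.7 ± 0.0836 times above RORA per kb of principal transcript in the untreated and 228 ± 13.9 times in the clofazimine libraries, and by the length of all annotated exons the ratios were 20.0 ± 0.131 and 358 ± 21.8. RORA (ENSG00000069667, chromosome 15, 60488284 to 61229319, minus strand) has many transcripts and start sites, and counts per gene cannot tell them apart. Of the genes that overlap RORA, RORA-AS1 on the opposite strand shares the most exon bases, 564 of 17040. It had 4 and 4 untreated and 8 and 3 clofazimine counts. The others share at most 100 exon bases each and had at most 2 counts in any library.

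CSNK1E, the kinase that marks PER proteins for turnover, rose 2.16-fold (log2 1.11 ± 0.13, SE). Its counts were 3443 and 3677 untreated and 5720 and 6576 with clofazimine, or 196 and 208 against 445 and 431 CPM. The close paralog CSNK1D, which acts on the same substrates, was at 224 and 249 against 219 and 204 CPM, a log2 fold change of -0.16 with a 95% interval from -0.42 to 0.10. The ratio of CSNK1E to CSNK1D per kb of principal transcript went from 1.14 ± 0.0375 to 2.76 ± 0.0796 (SD, n = 2). CSNK1E (ENSG00000213923, chromosome 22, 38290691 to 38318084, minus strand) shares 1316 of its 6246 exon bases with the readthrough gene TPTEP2-CSNK1E on the same strand. That gene had at most 3 counts in any library, so reads of the shared exons were hardly ever assigned to it.

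Per kb of principal transcript the order of the 9 genes was the same in both groups. BHLHE40 came first (201 ± 7.71 untreated and 827 ± 18.1 with clofazimine, CPM per kb, SD, n = 2), then CSNK1E (72.5 ± 2.97 and 157 ± 3.42), NFIL3 (15.03 ± 0.565 and 98.1 ± 0.794) and DBP (5.77 ± 0.851 and 33.8 ± 0.874). TEF (4.54 ± 0.391 and 11.5 ± 0.328), CIART (0.765 ± 0.165 and 8.70 ± 0.728), RORA (0.747 ± 0.0589 and 0.840 ± 0.119), BHLHE41 (0.467 ± 0.00789 and 0.677 ± 0.0159) and HLF (0.0256 ± 0.00739 and 0.410 ± 0.105) followed. CIART and RORA overlapped in the untreated libraries, and CIART stood well above RORA with clofazimine. By the length of all annotated exons, TEF stood above DBP in the untreated libraries, and in the clofazimine libraries NFIL3 stood above CSNK1E and BHLHE41 above RORA.

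The other genes of the pathway were described from 4 lists. Of 14 core clock genes 7 rose and 5 fell, with a median log2 fold change of 0.35, beside 29.5% and 30.4% of all genes tested. The REV-ERB genes led, with NR1D1 at 24.99 and 27.7 against 560 and 498 CPM (log2 4.33 ± 0.15, SE) and NR1D2 at 35.1 and 31.8 against 185 and 190 CPM (2.49 ± 0.13). PER1, a period gene that also responds quickly to stimuli, was at 72.9 and 88.6 against 456 and 367 CPM (2.35 ± 0.15). The lower genes, named after their values were seen, included the activators CLOCK (-0.76), NPAS2 (-0.58) and ARNTL2 (-0.53), together with TIMELESS (-0.97). ARNTL, which encodes the activator BMAL1, was called higher instead, at 41.0 and 35.1 against 59.3 and 45.6 CPM (0.46 ± 0.14). The activators of the core loop thus went both ways. CRY1 (0.15) and RORB were not called.

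The C/EBP factors are bZIP proteins whose sites resemble the D-box, and 3 of the 5 genes rose and 1 fell, with a median of 1.28, beside the same all-gene shares. CEBPG was at 72.5 and 54.5 against 242 and 262 CPM (log2 1.99 ± 0.14, SE), CEBPB, a factor of acute-phase and stress responses, at 209 and 192 against 660 and 783 CPM (1.85 ± 0.14), and CEBPD at 54.6 and 58.7 against 129 and 146 CPM (1.28 ± 0.12). The lower gene was CEBPE, a factor of granulocyte development, named after its values were seen, with 53 and 65 counts untreated and 1 and 3 with clofazimine.

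Genes that the PAR bZIP factors or the clock are known to drive, mostly from mouse liver, went both ways. Of 15 listed, 11 could be tested, of which 6 were higher, 4 were lower and 1, NR1I3, was not called, with a median log2 fold change of 0.58. Over all genes tested the shares were 29.5% higher and 30.4% lower, so the lower genes of this list were near that background. NAMPT, the rate-limiting enzyme of NAD salvage, rose from 161 and 144 to 516 and 584 CPM (log2 1.85 ± 0.13, SE). CES2, a carboxylesterase that activates prodrugs, fell from 72.1 and 69.0 to 30.0 and 26.2 CPM (-1.33 ± 0.13), and PPARA, a nuclear receptor of fatty acid oxidation, from 33.7 and 39.7 to 18.8 and 15.7 CPM (-1.09 ± 0.15). CES1 (-1.33) and PDXK (-0.46) were the other lower genes, and the count of lower genes was 2 without untreated replicate 2. Besides NAMPT, the higher genes were TSC22D3 (log2 0.996), POR (0.97), WEE1 (0.82), ALAS1 (0.75) and PDK4 (0.58). Among the genes not tested, CYP7A1 had 0 counts in all 4 libraries, and CYP2A6 and ABCB1 had too few.

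Of 20 genes for kinases, ubiquitin enzymes, corepressors and other proteins that act on clock proteins, 19 could be tested, of which 7 were higher and 5 lower, with a median of 0.20. Both counts were near the shares over all genes tested (29.5% higher and 30.4% lower). None was called at a change of 2-fold or more in either direction. SIRT1, a deacetylase that acts on clock proteins, rose from 63.4 and 55.6 to 109 and 110 CPM (log2 0.88 ± 0.12, SE). BTRC and FBXW11, the beta-TrCP proteins that target phosphorylated PER for degradation, fell from 28.5 and 28.4 to 15.6 and 16.1 CPM (-0.84 ± 0.14) and from 84.0 and 88.4 to 52.4 and 52.6 CPM (-0.72 ± 0.12). The other lower genes were GSK3B, KDM5A and HDAC3. The count of higher genes was 4 without untreated replicate 2, and that of lower genes 3 without untreated replicate 1.

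**Figure D3:**
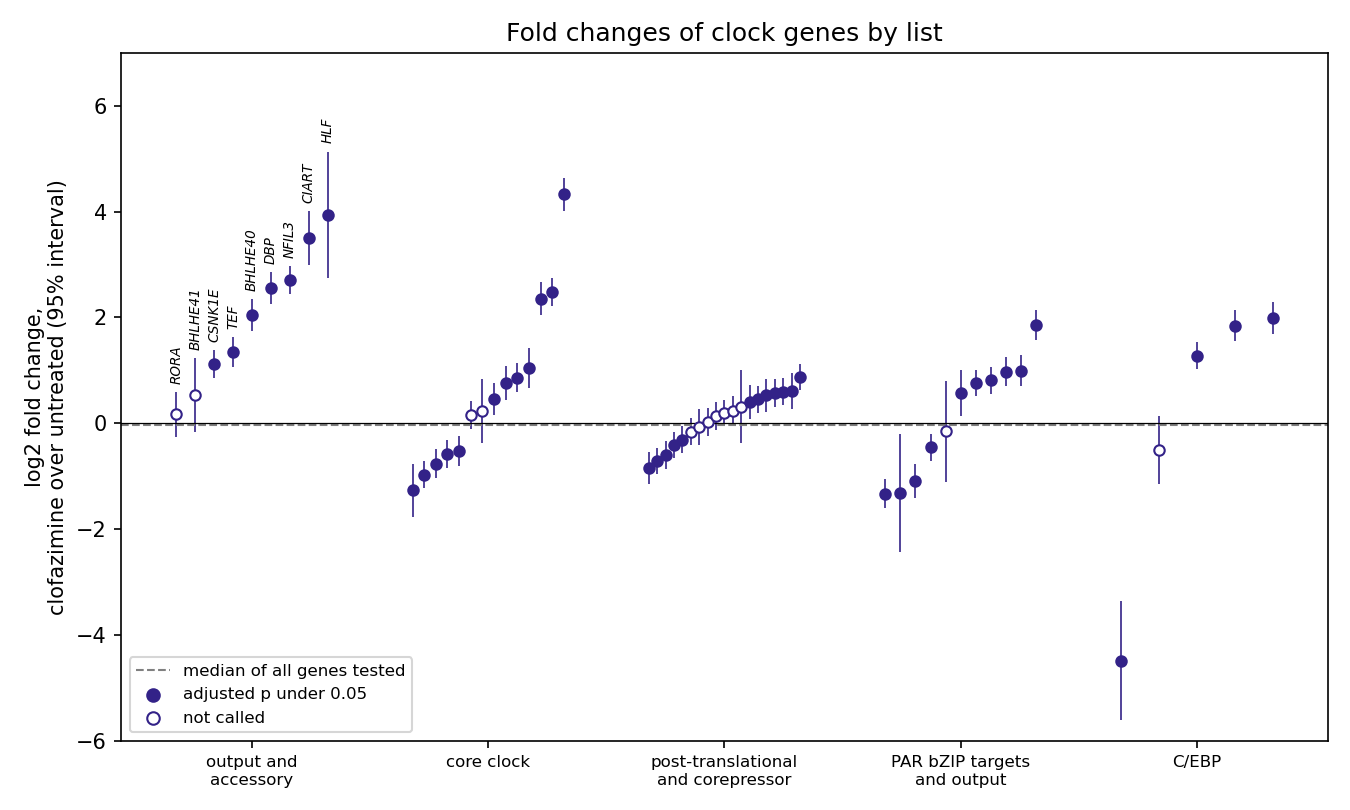
Log2 fold change of each tested gene (clofazimine over untreated) with its 95% interval, in 5 lists, with filled points for an edgeR adjusted p under 0.05, open points for genes not called and a dashed line at the median of all genes tested (-0.03). The 7 called genes of clock output lie between 1.11 and 3.94, while the other lists hold genes on both sides of 0.

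Under 12 alternative settings none of the 9 genes changed its side of the threshold or its sign. The fold change of DBP ranged from 2.39 to 2.89 on the log2 scale, that of TEF from 1.17 to 1.60 and that of BHLHE40 from 1.88 to 2.24. RORA stayed between 0.00 and 0.32 and BHLHE41 between 0.37 and 0.60, uncalled in each.

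**Figure D4:**
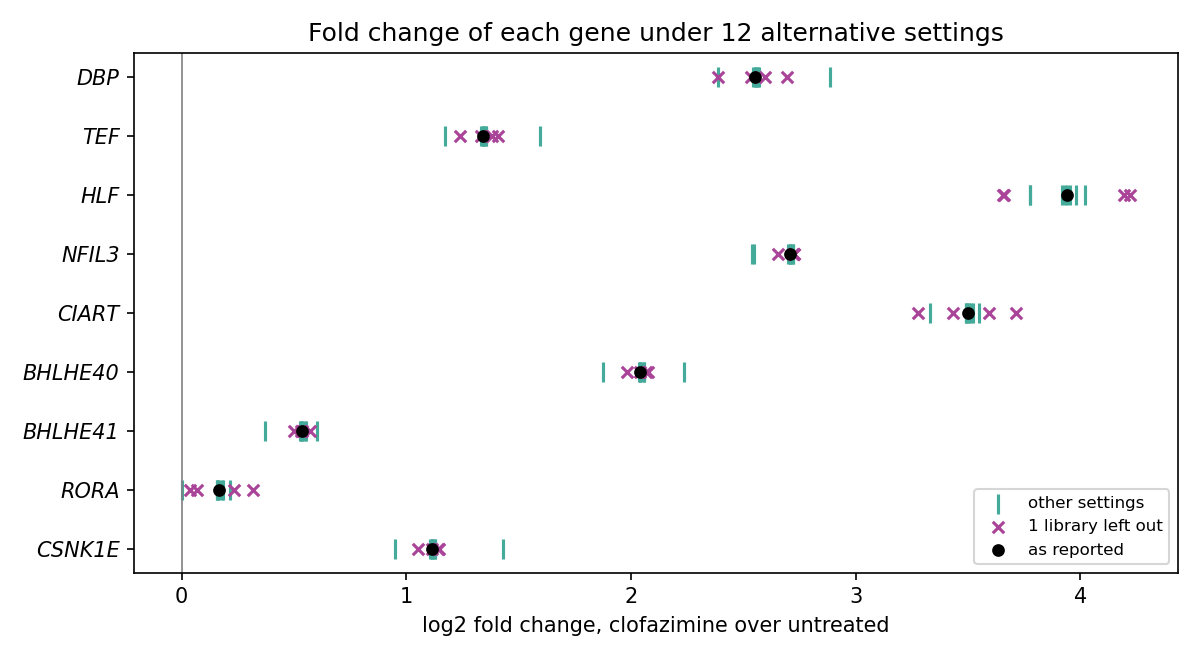
Log2 fold change (clofazimine over untreated) of each of the 9 genes as reported (black), with 1 library left out (crosses) and under the other alternative settings (bars). The values of CSNK1E lie between 0.95 and 1.43 and those of HLF between 3.65 and 4.22, and each gene stays on 1 side of 0.

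Total counts per library lay between 13543437 and 16860578, and a count of 0 allows a level of up to 0.170 to 0.233 CPM. Fewer genes were detected after clofazimine (24082 and 24086, against 25763 and 26091), and mitochondrial genes took 2.06% and 2.13% of the counts there, against 3.69% and 3.75% in untreated cells. Markers fixed for the labelled cell type were only in part present. Of 10 hepatocyte and liver epithelial markers, ALB, AFP, TTR, APOB and FGB had 0 counts in all 4 libraries, APOA1 had 1 count in all, SERPINA1 and HNF4A were low and fell with clofazimine (log2 -2.14 ± 0.31 and -3.17 ± 0.52, SE), and the keratins KRT8 and KRT18 held nearly all of the summed 1617 to 1995 CPM. Of 10 markers of blood, endothelial and fibroblast cells, PTPRC and HBB had 0 counts, the summed level was 68.5 and 84.8 CPM untreated and 27.1 and 30.1 with clofazimine, and the 5 that could be tested were lower. Most of the untreated sum was CD14 (33.3 and 40.0 CPM) and PECAM1 (22.9 and 28.9 CPM). Each stood above SERPINA1 (5.13 and 6.85 CPM untreated) and HNF4A (2.80 and 3.68 CPM). The part of these differences in the values of the 9 genes was not tested.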

How the data were processed

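Polyadenylated RNA of 2 untreated and 2 clofazimine libraries was analysed. The authors deposited raw counts per Ensembl gene, per the file headers, as whole numbers. Fastp and GRCh38 are named in the submitters' processing notes. The aligner, the counter and its strand setting are not given in the sources used here. Groups came from the titles, and control columns were matched to titles with Wildtype and the same number.

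Counts of all 58735 genes were filtered with filterByExpr (minimum count 10, minimum total 15), which left 16388, scaled by TMM and tested with edgeR 4.0.16 in R 4.3.3 (quasi-likelihood test, no replicate term, Benjamini-Hochberg adjustment). The pipeline was tested on simulated counts. Standard errors are the log2 fold change over the square root of F. CPM uses TMM-scaled library sizes. Total counts per library set the precision given in the text. Symbols, coordinates and lengths came from GENCODE 29, which holds all identifiers.

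Alternatives were DESeq2 1.42.0, limma 3.58.1 (voom), other scalings and filters, a replicate block, leaving out each library, and an offset for exon length and GC content (mgcv 1.9.3). The 9 genes, the lists and the settings were chosen with earlier results of these data known. All 9 genes are named. From each other list the rule named the 3 largest changes among called genes with a mean of at least 5 CPM and groups that do not overlap, and RORB and CSNK1D as paralogs. Values of some list genes are left out. Other genes were named after their values were seen. Genes of like pattern were not sought, since the 4 libraries hold 1 contrast. The choice between transcript lengths was made after the data were seen.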

Additional observations from a re-analysis of the deposited data

How the results depend on the processing

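The 9 genes kept their direction and their side of the threshold under all 12 alternatives, with 7 higher and 0 lower in each. Leaving out 1 library at a time moved HLF most, between 3.65 and 4.22 on the log2 scale, followed by CIART, between 3.28 and 3.72. The labels do not say whether libraries of the same number were handled together. Deviations from the group means of untreated and clofazimine replicate 1 correlated at -0.05 across genes, and 1 such pair cannot settle this. The replicate block called 9605 genes in place of 9811 and left all calls of the 9 genes as they were. Among the other lists, the count of lower genes in the list of PAR bZIP targets and clock output was 2 in place of 4 with the offset for exon length and GC content, and the cause was not tested. With 1 library left out, counts of lower genes in that list ran from 2 to 5. In the list of kinases, ubiquitin enzymes and corepressors they ran from 3 to 6, and counts of higher genes from 4 to 7. The all-gene counts of higher and lower genes stayed between 3397 and 5144 and between 3523 and 6245. HLF, BHLHE41 and CIART rest on the fewest counts and had the largest standard errors of the 9.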
